A study of Mus musculus with 18 samples.

Results

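The genes described here encode 6 peptides that are better known from gut and nerve than from pancreatic islets: secretin (Sct), guanylin (Guca2a), vasoactive intestinal peptide (Vip), cholecystokinin (Cck), neuropeptide Y (Npy) and ghrelin (Ghrl). They were taken by gene symbol from 24346 genes measured in islets isolated from C57BL/6 mice, and several of them were chosen on these same values, because they differed with diet or because the diet difference depended on genotype. The 18 libraries form 6 groups of 3, from mice in which exon 2 of the T-cadherin gene Cdh13 was either floxed (the controls) or deleted. For each genotype there were islets of mice aged 8 weeks on normal chow, of mice aged 14 weeks on normal chow, and of mice aged 14 weeks that had eaten a high-fat diet for the last 6 weeks. The labels do not say which promoter or cell type drove the deletion, whether each library came from 1 mouse or a pool, or that the replicates were separate animals, so p-values measure only the spread between these libraries. Values are FPKM, a fragment count scaled to transcript length and to library size, and differences are of log2(FPKM + 1) with their standard error (SE), a scale that understates the change of genes with low values.

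An islet is mostly beta, alpha, delta and PP cells, which secrete insulin, glucagon, somatostatin and pancreatic polypeptide, but it also holds rare ghrelin-producing epsilon cells and the endings, and at times the cell bodies, of autonomic nerves. VIP is released by parasympathetic neurons and enhances glucose-stimulated insulin secretion, whereas NPY is a co-transmitter of sympathetic nerves that restrains it and is also made by immature beta cells. Secretin, cholecystokinin and guanylin are made in the intestinal epithelium, where they drive pancreatic bicarbonate secretion, gallbladder contraction and acinar secretion, and fluid secretion into the gut lumen. Cholecystokinin has also been described in beta cells of obese mice.

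Medians over the 18 libraries were 14.5 FPKM for Npy, 13.7 for Vip, 3.42 for Ghrl, 3.23 for Guca2a, 0.884 for Sct and 0.169 for Cck. By mean, Npy lay above 81.9%, Vip above 80.8%, Ghrl above 72.4%, Guca2a above 62.8%, Sct above 50.9% and Cck above 44.5% of all listed genes. Npy and Guca2a were above 0 in every library, Sct and Vip were listed at 0 in 1 library each, Ghrl in 2 and Cck in 6. Genes were tested when they reached 1 FPKM in at least 3 libraries. Npy did so in 18 libraries, Guca2a in 17, Vip in 16, Ghrl in 14 and Sct, the member just inside that threshold, in 7. Cck reached it in 1 library and was not tested, so 5 of the 6 members were among the 12234 genes tested. The files give no read counts, so the number of fragments behind these values is unknown and 0 FPKM does not show that a transcript was absent.

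**Figure D1:**
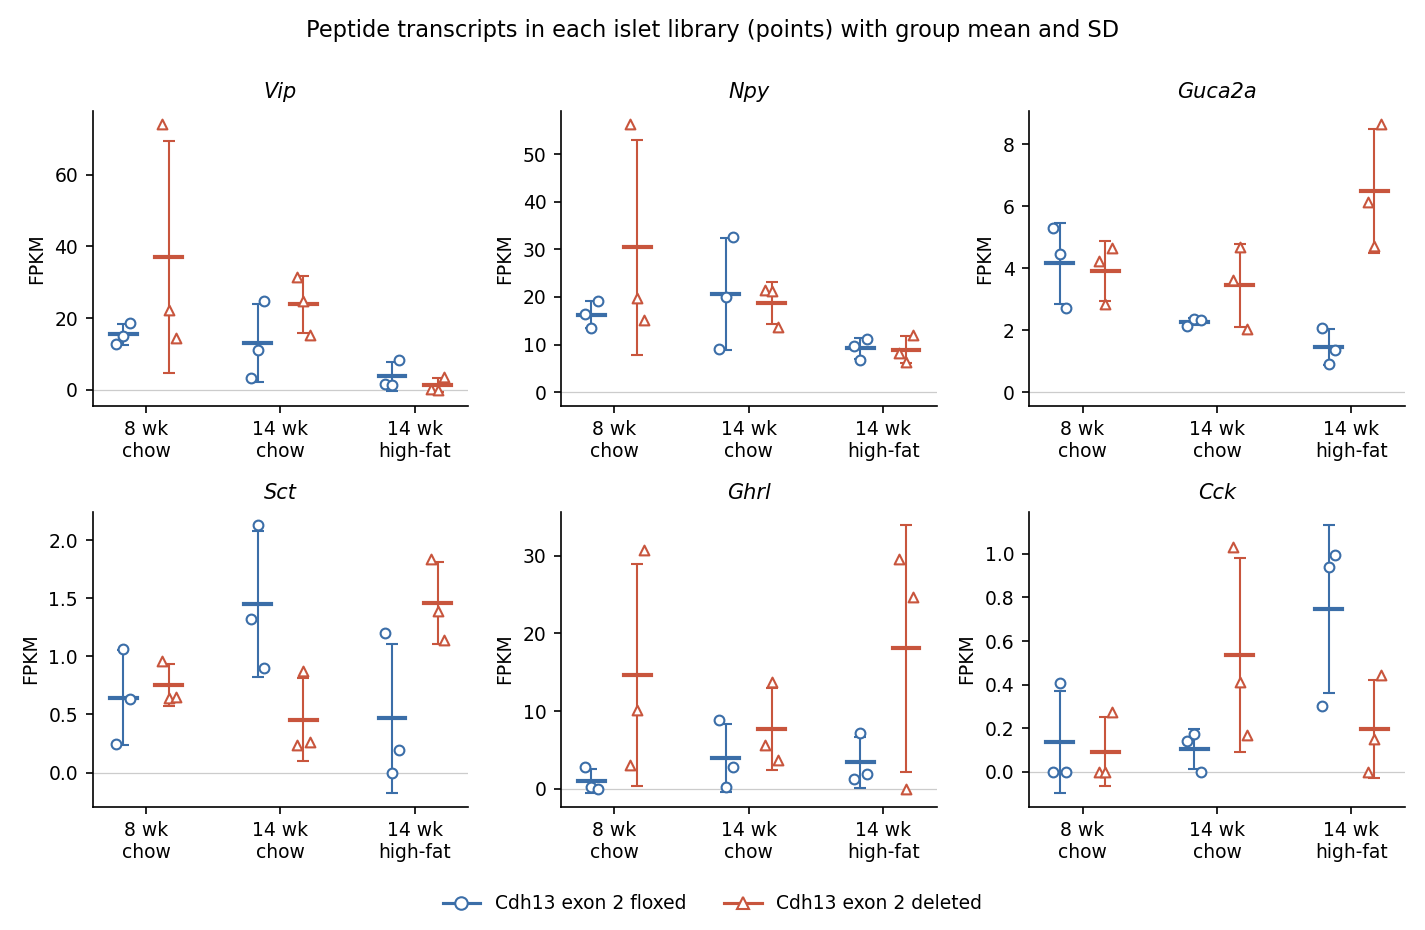
FPKM (linear axis) of the 6 peptide genes in each library. Circles are floxed and triangles deleted islets, thick bars are group means and whiskers 1 SD over 3 libraries. Vip and Npy are lowest on the high-fat diet, and Guca2a is highest in deleted islets on that diet, at 4.72 to 8.66 FPKM.

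Of the series as a whole, the following bears on these genes. Cdh13 lay lower in deleted islets in each condition without overlap, at 0.247 to 0.809 FPKM against 1.08 to 2.06 FPKM in floxed islets. The whole-gene value covers exons outside the deleted one and is therefore only a partial check. FPKM summed over all genes ran from 903346 to 1078671 in the 14-week chow groups and from 1337804 to 1394009 on the high-fat diet, where summed beta cell markers were higher (702311 to 754938 against 380114 to 493817 FPKM). Acinar markers summed to 906 to 4522 FPKM in the 14-week chow libraries and to 19.6 to 291 FPKM on the high-fat diet. Of 10 intestinal epithelium markers, 7 stayed under 1 FPKM in every library, and the intestinal transcription factor Cdx1 and the colonic chloride exchanger Slc26a3 were at 0 throughout. Of 10 enteroendocrine markers, which summed to 184 to 247 FPKM, Lmx1a and Pax4 were at 0 and most of the others are islet genes too. In these bulk samples, fewer cells of a type and less RNA per cell cannot be told apart.

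Of the comparisons in this design, only that of deleted against floxed islets at 8 weeks shares no library with the diet and genotype-by-diet differences for which genes were chosen. It was tested with limma and Benjamini-Hochberg adjustment over all 12234 genes. There 0 of the 5 tested members passed an adjusted p of 0.05. Cdh13, the targeted gene itself, did not pass there either (-0.51, SE 0.168, adjusted p = 0.179 by limma). A member that did not pass is therefore not shown to be unchanged. Over all genes 67 passed (0.548%), and 1535 had an unadjusted p under 0.05. The genotype difference averaged over the 3 conditions, and the 4 groups at 14 weeks against the 2 groups at 8 weeks, both include the 14-week chow and high-fat libraries. The latter also mixes age with diet. For the 6 genes these 2 comparisons, and all diet differences, are therefore descriptions without a test. Whether the libraries of groups overlap or stand apart is likewise a description. The share of all genes whose libraries stand apart is not given here, so a separation cannot be set against it. Over all genes 3.61% passed for mean genotype and 20.1% for 14 against 8 weeks.

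Vip and Npy were the most abundant of the 6 and followed each other from library to library. The Vip gene lies on chromosome 10 (5639218 to 5647617, plus strand) and Npy on chromosome 6 (49822710 to 49829507, plus strand) in mm10. Because the 2 moved together, the 100 bases before each start site are shown, from the RefSeq table for GRCm38.p6, both on the plus strand. Capitals mark TGACG, the core of the cAMP response element, which was searched on both strands. They also mark ATAAAA, a run found in some core promoters, which was searched on the gene strand.
Vip, chr10:5639118-5639217: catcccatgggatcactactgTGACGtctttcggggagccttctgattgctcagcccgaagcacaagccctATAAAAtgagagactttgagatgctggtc
Npy, chr6:49822610-49822709: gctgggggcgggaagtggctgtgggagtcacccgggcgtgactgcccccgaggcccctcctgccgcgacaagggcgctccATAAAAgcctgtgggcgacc
In the 250 bases before the start site, Vip held TGACG from position -79 and ATAAAA from -29, and Npy held ATAAAA from -20. TGACG stands in 17.9% and ATAAAA in 10.2% of the 32536 promoters of that table. All 6 genes were matched in it. Cck held TGACG on the other strand from -47, and neither run of letters stood in the windows of Sct, Guca2a and Ghrl.

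Vip was at 12.9, 15 and 18.7 FPKM in floxed and 74.1, 22.4 and 14.6 FPKM in deleted islets at 8 weeks. At 14 weeks on chow it was at 3.31, 11.1 and 24.9 FPKM in floxed and 31.4, 24.7 and 15.4 FPKM in deleted islets. After the high-fat diet it was at 1.62, 1.34 and 8.38 FPKM in floxed and 0.341, 0 and 3.54 FPKM in deleted islets. The high-fat groups were the lowest for both genotypes. Between diets the deleted groups did not overlap, whereas the floxed groups did, because replicate 1 on chow was itself low. The mean in deleted islets was 18.4-fold lower on the high-fat diet than on chow (log2 difference -3.71, SE 0.809), and in floxed islets 3.47-fold lower (-1.52, SE 0.809). The difference between these diet effects was -2.19 (SE 1.14).

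Over both diets, Vip was lower at 14 than at 8 weeks by a log2 difference of -1.76 (SE 0.495), which includes the low high-fat libraries. On chow alone it was -0.45 (SE 0.572). Deleted and floxed islets at 8 weeks differed by 0.88 (SE 0.809, adjusted p = 0.717 by limma), and the mean genotype difference was 0.31 (SE 0.467). In the order of group means, which ran from deleted at 8 weeks (37.1 ± 32.4 FPKM, SD, n = 3) down to deleted on the high-fat diet (1.29 ± 1.95 FPKM), no pair of neighbours stood apart.

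Npy was at 16.4, 13.4 and 19.1 FPKM in floxed and 56.3, 19.7 and 15.2 FPKM in deleted islets at 8 weeks. At 14 weeks on chow it was at 9.14, 19.9 and 32.6 FPKM in floxed and 21.5, 21.2 and 13.7 FPKM in deleted islets. In high-fat islets it was at 9.71, 6.71 and 11.2 FPKM in floxed and 8.28, 6.42 and 12 FPKM in deleted libraries. As with Vip, the deleted groups did not overlap between diets and the floxed groups did, through the low replicate 1 on chow. The differences were close to each other, at -0.94 in floxed and -1.01 in deleted islets (SE 0.484 for each). The genotype difference at 8 weeks was 0.65 (SE 0.484, adjusted p = 0.647 by limma). Mean genotype differed by 0.20 (SE 0.28) and 14 against 8 weeks by -0.64 (SE 0.297). Only the floxed 8-week group and the next lower group in the order of means, floxed on the high-fat diet, stood apart.

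The same libraries were high or low for both peptides. Over the 18 libraries, Pearson's r between Vip and Npy on the log2 scale was 0.904 and Spearman's rho 0.930, and r was 0.896 for deviations from the group means. Without replicate 1 of the deleted 8-week group, the highest for both, r was 0.900 over 17 libraries. Without the 2 libraries farthest from the median of Vip it was 0.899; both omissions were chosen after the values were seen. Among the other 9 pairs of tested members, r lay between -0.284 and 0.399. These points share the group differences and the summed FPKM of each library, and r is given as a description.

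The genes whose values were most like those of Npy were neuronal: Stmn2 (a microtubule regulator of growing axons, r = 0.920, rho = 0.868), Prph (peripherin, the intermediate filament of peripheral neurons, r = 0.915, rho = 0.853) and Sncg (gamma-synuclein, r = 0.909, rho = 0.884). For Vip they were Eps15 (an endocytic adaptor, r = 0.892), Htr3a (a serotonin-gated channel subunit, r = 0.887) and again Stmn2 (r = 0.881). Eps15 was at 5.05 to 8.92 FPKM in every library, and for deviations from group means its r with Vip was 0.607, against 0.939 for Stmn2. As the top 3 among all other tested genes, these values are maxima by choice. For other tested markers of the neuronal list given below, r with Npy and Vip was 0.630 and 0.602 (Elavl4) and 0.528 and 0.397 (Tubb3). It was negative for Nefm (-0.613 and -0.588), Ret (-0.296 and -0.208) and Th (-0.090 and -0.312).

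Replicate 1 of the deleted 8-week group, with the highest Vip and Npy, also had the highest Stmn2 (10.2 FPKM), Prph (12.1 FPKM) and Sncg (31.7 FPKM). Its summed acinar markers were 1166 FPKM, against 225 and 37.7 FPKM in replicates 2 and 3. In floxed 14-week chow replicates 1, 2 and 3 these markers summed to 4522, 1999 and 906 FPKM, the reverse of the order of Vip (3.31, 11.1 and 24.9 FPKM) and Npy. In the deleted 14-week chow replicates they summed to 1367, 2514 and 1996 FPKM, with Vip at 31.4, 24.7 and 15.4 FPKM. The part of such carried-over tissue was not tested. Replicate 2 of the deleted high-fat group, where Vip was listed at 0, had Stmn2, Htr3a and the acetylcholine transporter Slc18a3 all listed at 0, and Prph at 0.0469 FPKM; Htr3a and Slc18a3 were also at 0 in replicate 1 of this group. Other markers of the neuronal list were not low there, with Th at 29.8, Tubb3 at 19.6 and Ret at 17 FPKM, each the highest of its group. Npy was still at 6.42 FPKM. The ratio of Vip to Npy was 0 to 0.295 in deleted and 0.167 to 0.748 in floxed islets on the high-fat diet. At the same age on chow it was 1.12 to 1.46 in deleted and 0.362 to 0.765 in floxed islets, so it stood apart between diets only in deleted islets. In floxed islets at 14 weeks on chow, Stmn2 was at 0.286, 1.09 and 4.07 FPKM, in the same order as Vip and Npy. The noradrenaline-synthesizing enzyme Dbh was at 2.27 FPKM in the third of these libraries and at 0 to 0.0694 FPKM in the other 17.

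**Figure D2:**
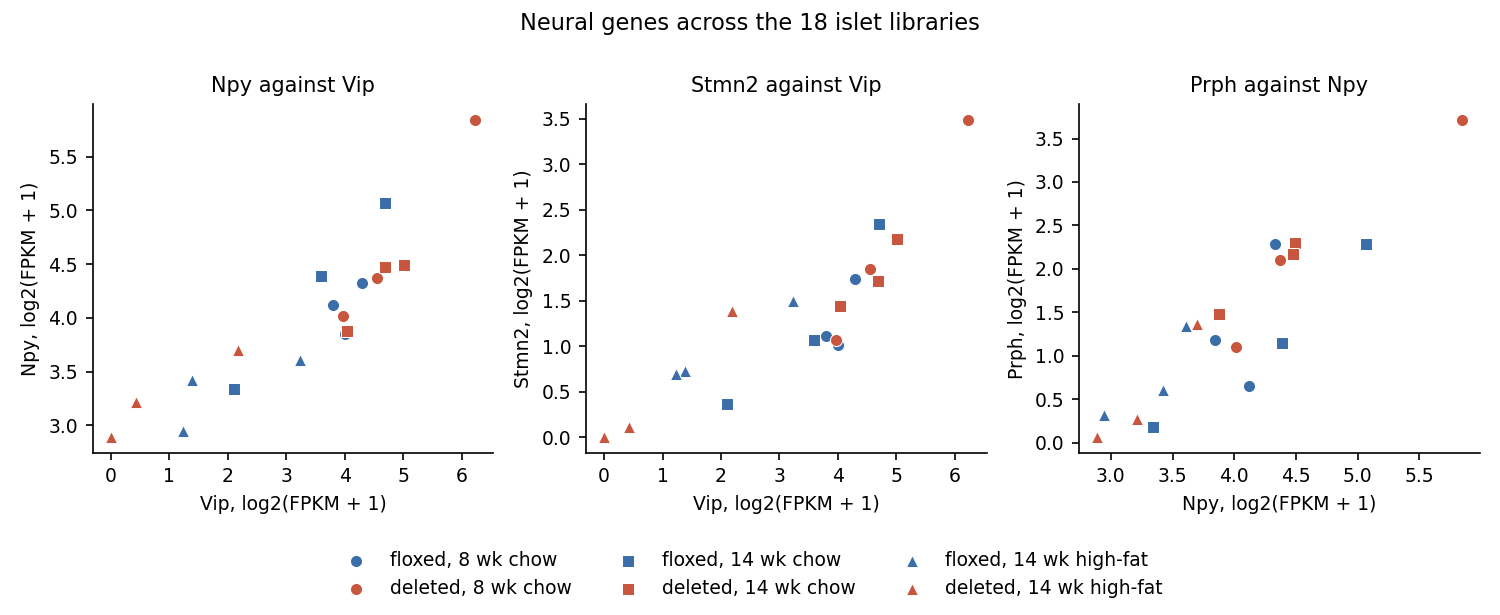
Each point is 1 of 18 libraries, with log2(FPKM + 1) on both axes; colour gives genotype and symbol shape age and diet. Npy (left) and Stmn2 (middle) are plotted against Vip and Prph (right) against Npy; high-fat libraries lie towards the lower left of each panel and replicate 1 of the deleted 8-week group at the upper right.

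Of a list of 12 neuronal markers, 7 were tested, and the share called was near that of all genes. In floxed islets on the high-fat diet 1 rose (the neurofilament gene Nefm, 0.53, adjusted p = 0.0121 by limma) and 1 fell (the tubulin gene Tubb3, -0.72, adjusted p = 0.000652), against 28.5% of all genes. In deleted islets 1 rose (tyrosine hydroxylase, Th, 0.47, adjusted p = 0.00882), against 15.0% of all genes. No marker passed in either genotype comparison used here. Medians were -0.23 in floxed and -0.07 in deleted islets, beside -0.006 and -0.003 over all genes. The diet difference of Stmn2 was -0.28 in floxed islets (adjusted p = 0.772 by limma) and -1.28 in deleted islets (adjusted p = 0.198). That of Prph was -0.45 (adjusted p = 0.679) and -1.42 (adjusted p = 0.203). Without replicate 3 of floxed 14-week chow, the floxed difference turned to 0.26 for Stmn2 and 0.09 for Prph. Th, Tubb3, Elavl4 and Ret of this list are also expressed by islet endocrine cells, and the summed list (58.4 to 101 FPKM) is mostly theirs. Schwann cell markers, the glia of these nerves, summed to 2.43 to 3.62 FPKM in deleted islets on the high-fat diet and to 3.76 to 5.28 FPKM in the other 15 libraries. The part of nerve content in the Vip and Npy values was not tested.

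Both VIP receptors were present throughout, Vipr1 at 3.08 to 6.48 FPKM and Vipr2 at 8.52 to 14.7 FPKM. On the high-fat diet in floxed islets, Vipr1 fell by 0.50 (adjusted p = 0.0295 by limma) and Vipr2 rose by 0.34 (adjusted p = 0.0306). Neither passed in deleted islets, where the differences were 0.07 (adjusted p = 0.813) and 0.11 (adjusted p = 0.57), and the difference between genotypes was not called for either (0.57, adjusted p = 0.208 for Vipr1; -0.23, adjusted p = 0.517 for Vipr2). Both calls depended on single libraries and were also lost without the filter on low values (adjusted p = 0.0598 and 0.0538). Vipr1 lost its call when any library of the floxed 14-week groups was left out other than replicate 2 on the high-fat diet (adjusted p 0.0587 to 0.143). Vipr2 lost its call without replicate 1 of the floxed high-fat group (0.22, adjusted p = 0.188), and without replicates 1 or 3 of the floxed 14-week chow group (0.35, adjusted p = 0.0656; 0.28, adjusted p = 0.118). Adcyap1r1, the PACAP receptor of the same family, did not exceed 0.524 FPKM. The 5 NPY receptors on the list did not exceed 0.237 FPKM, with Npy2r and Npy6r at 0 in all libraries.

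Guca2a (chromosome 4, 119637704 to 119639471, plus strand) had its highest and its lowest group mean on the high-fat diet, in deleted and in floxed islets. At 8 weeks it was at 5.31, 4.45 and 2.72 FPKM in floxed and 4.25, 2.84 and 4.67 FPKM in deleted islets. At 14 weeks on chow it was at 2.14, 2.35 and 2.32 FPKM in floxed and 3.63, 4.7 and 2.04 FPKM in deleted islets. After the diet it was at 2.07, 0.919 and 1.36 FPKM in floxed and 6.13, 4.72 and 8.66 FPKM in deleted islets. Only on the high-fat diet did the genotypes stand apart, with a 4.49-fold higher mean in deleted islets. All 3 floxed libraries on the diet lay below those on chow and all 3 deleted libraries above, at differences of -0.44 and 0.77 (SE 0.247 for each).

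The genotype difference of Guca2a was -0.05 at 8 weeks (SE 0.247, adjusted p = 0.96 by limma). It was 0.40 for the older mice kept on chow and 1.61 for those given the high-fat diet (SE 0.247 for each), and 0.65 (SE 0.143) averaged over the 3 conditions. The difference between the genotypes' diet effects was 1.21 (SE 0.35). The 14-week groups against the 8-week groups differed by -0.32 (SE 0.152). In the order of group means, floxed on chow at 14 weeks and floxed on the high-fat diet stood apart, and the other neighbours overlapped.

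The receptor of guanylin, the guanylate cyclase Gucy2c, had its highest values in the group where Guca2a was lowest. It was at 6.42, 4.49 and 5.18 FPKM in floxed islets on chow at 14 weeks and at 9.69, 10.6 and 9.29 FPKM on the high-fat diet. In deleted islets it was at 4.89, 4.97 and 5.82 FPKM on chow and 4.2, 5.27 and 5.29 FPKM on the diet. The floxed high-fat libraries stood above the other 15, whose highest value was 6.68 FPKM. Gucy2c thus rose in floxed islets by 0.78 (SE 0.113, adjusted p = 5.50e-05 by limma), while the difference in deleted islets was -0.08 (adjusted p = 0.713). The difference between the genotypes' diet effects was -0.85 (SE 0.159, adjusted p = 0.00475 by limma, where 3.53% of all genes passed). This last test was chosen after the values were seen. Both calls were kept in all 25 alternatives run, with adjusted p up to 0.000653 for the floxed difference and up to 0.0168 for the difference between genotypes. At 8 weeks the deleted libraries (6.68, 6.13 and 6.17 FPKM) lay above the floxed ones (4.55, 4.73 and 5.4 FPKM), opposite to the order on the high-fat diet. That 8-week difference did not pass. The mean genotype difference of Gucy2c, which averages over these opposite directions, was -0.19 (adjusted p = 0.104 by limma). The second ligand of this receptor, uroguanylin (Guca2b), was listed at 0 in 15 libraries and did not exceed 0.186 FPKM.

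**Figure D3:**
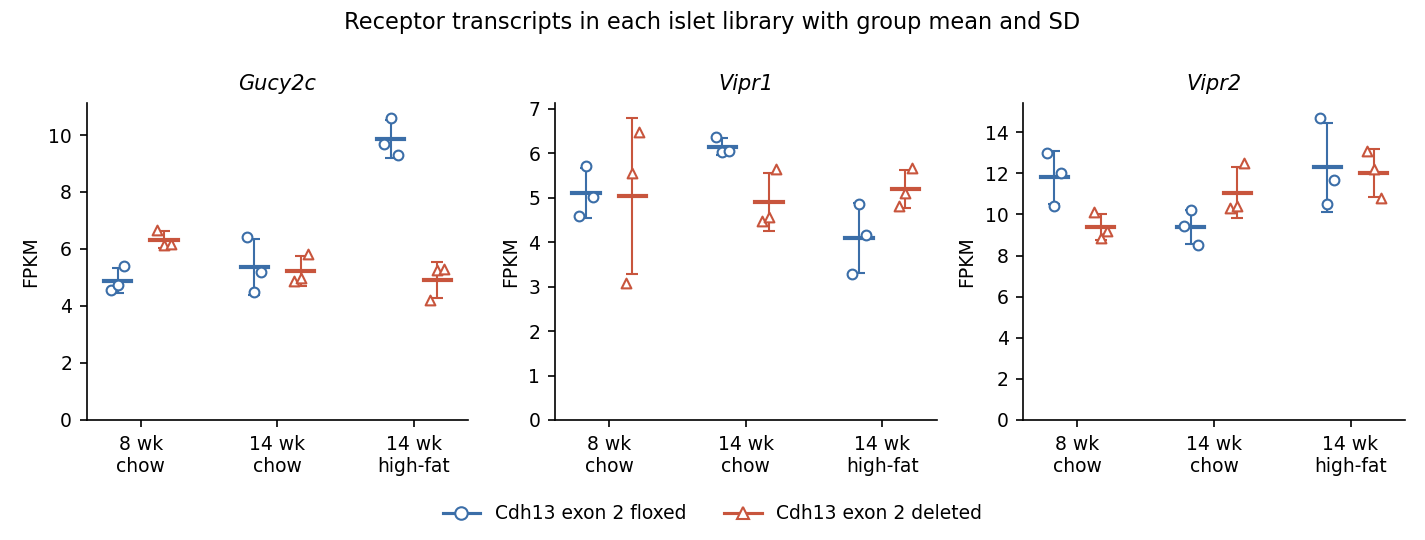
FPKM (linear axes from 0) of the guanylin receptor Gucy2c and the VIP receptors Vipr1 and Vipr2 in each library, with circles for floxed and triangles for deleted islets, group means (thick bars) and 1 SD over 3 libraries (whiskers). For Gucy2c the 3 floxed high-fat libraries, at 9.29 to 10.6 FPKM, stand above all others.

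Over the list of 13 receptors, 3 were tested. In floxed islets on the high-fat diet, where 28.5% of all genes passed, all 3 did: Gucy2c and Vipr2 rose and Vipr1 fell (median 0.34, against -0.006 over all genes). In deleted islets, where 15.0% of all genes passed, 0 of 3 did (median 0.07, against -0.003). None passed for genotype at 8 weeks, mean genotype or 14 against 8 weeks. The 10 others failed the filter on low values, among them the receptors of secretin (Sctr, at most 0.294 FPKM), cholecystokinin (Cckar and Cckbr, at most 0.529 and 0.546 FPKM) and ghrelin (Ghsr, 0.175 to 0.584 FPKM).

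The genes most like Guca2a over the 18 libraries were Rab3b (a secretory vesicle GTPase, r = 0.844, rho = 0.866), Ppp1r1a (a protein phosphatase inhibitor, r = 0.838, rho = 0.847) and Slc2a2 (the beta cell glucose transporter GLUT2, r = 0.834, rho = 0.833). Slc2a2 was at 28.2, 23.9 and 23.9 FPKM in floxed and 60.3, 51.1 and 49.4 FPKM in deleted islets on the high-fat diet, so its genotypes stood apart there as those of Guca2a did. For deviations from group means, r with Guca2a was 0.720 for Rab3b and 0.329 for Slc2a2. Summed markers of some other islet cells also stood apart between these high-fat groups. Alpha cell markers, mostly Gcg, summed to 35540 to 45809 FPKM in deleted and 22950 to 27767 FPKM in floxed high-fat islets. Delta cell markers, mostly Sst, summed to 2813 to 3203 and 1538 to 1697 FPKM. Summed beta cell markers (702311 to 751841 and 721932 to 754938 FPKM) and PP cell markers (18285 to 28877 and 15819 to 23573 FPKM) overlapped. Summed intestinal epithelium markers, at 17.8 to 21.6 and 16.5 to 21.5 FPKM, overlapped between these groups. Most of that sum was Vil1 and Lgals4 (medians 12.5 and 4.41 FPKM over the 18 libraries), so it says little about the other markers of that list. The part of cell composition in the Guca2a values was not tested.

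Sct (chromosome 7, 141278330 to 141279133, minus strand) was the second lowest of the 6. At 8 weeks it was at 0.246, 1.06 and 0.631 FPKM in floxed and 0.963, 0.643 and 0.65 FPKM in deleted islets. At 14 weeks on chow it was at 1.32, 2.13 and 0.898 FPKM in floxed and 0.233, 0.871 and 0.263 FPKM in deleted islets. In high-fat islets it was at 1.2, 0 and 0.197 FPKM in floxed and 1.84, 1.39 and 1.14 FPKM in deleted islets. The pattern crossed: deleted islets lay below floxed on chow at 14 weeks and their libraries did not overlap, whereas on the high-fat diet they lay above, except that floxed replicate 1 (1.2) exceeded deleted replicate 3 (1.14). The diet difference was -0.80 in floxed and 0.77 in deleted islets (SE 0.257 for each), which gives a difference between them of 1.57 (SE 0.364). At 8 weeks the genotype difference was 0.11 (SE 0.257, adjusted p = 0.91 by limma). Mean genotype differed by 0.06 (SE 0.149) and 14 against 8 weeks by 0.14 (SE 0.158). All neighbours in its order of group means overlapped.

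Its most similar genes were Gmeb1 (r = 0.749, rho = 0.748), Klb (beta-klotho, the co-receptor of endocrine FGFs, r = 0.692, rho = 0.719) and Smim6 (r = 0.690, rho = 0.723). Klb was at 3.71, 3.99 and 4.35 FPKM in deleted and 1.81, 1.16 and 1.7 FPKM in floxed islets on the high-fat diet, without overlap. On a gene whose values lie around 1 FPKM the added pseudocount sets much of the size of a difference. With 0.1 in place of 1, the diet difference of Sct was -2.12 in floxed and 1.65 in deleted islets.

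Cck (chromosome 9, 121489824 to 121495694, minus strand) was the lowest of the 6. It was at 0, 0.407 and 0 FPKM in floxed and 0, 0 and 0.274 FPKM in deleted islets at 8 weeks. At 14 weeks on chow it was at 0.142, 0.172 and 0 FPKM in floxed and 1.03, 0.413 and 0.166 FPKM in deleted islets. On the high-fat diet it was at 0.303, 0.942 and 0.997 FPKM in floxed and 0, 0.15 and 0.443 FPKM in deleted islets. In floxed islets the high-fat libraries lay above those on chow without overlap (0.64, SE 0.234), and in deleted islets the groups overlapped (-0.34, SE 0.234). The difference between these was -0.98 (SE 0.331). With a pseudocount of 0.1 these 3 values became 2.04, -1.17 and -3.21. The only library to reach 1 FPKM was replicate 1 of deleted islets on chow at 14 weeks, and all neighbours in the order of means overlapped. Gast, the gene of the related hormone gastrin, was at 0 to 2.28 FPKM.

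Ghrl (chromosome 6, 113716119 to 113719880, minus strand) varied most between replicates. It was at 2.78, 0.187 and 0 FPKM in floxed and 3.12, 10.2 and 30.7 FPKM in deleted islets at 8 weeks. At 14 weeks on chow it was at 8.8, 0.237 and 2.77 FPKM in floxed and 5.61, 13.7 and 3.72 FPKM in deleted islets. On the high-fat diet it was at 1.21, 7.21 and 1.88 FPKM in floxed and 29.6, 0 and 24.7 FPKM in deleted islets. Deleted means were higher in each condition, but the genotypes stood apart only at 8 weeks, where the ratio of the means was 14.9. That difference was 2.78 (SE 1.28, adjusted p = 0.399 by limma), and did not pass. The mean over the 3 conditions was 1.73 (SE 0.739), and 14 against 8 weeks gave 0.36 (SE 0.784). All neighbours in its order of group means overlapped. On the high-fat diet 1 library decides the value: the genotype difference was 1.30 with all libraries and 2.91 without deleted replicate 2, and the diet difference in deleted islets 0.26 and 1.87.

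At 8 weeks the PP cell markers were also higher in deleted islets. Ppy and Pyy summed to 42407 to 55901 FPKM in deleted and 11376 to 17152 FPKM in floxed islets, and Pyy rose by 0.86 (adjusted p = 0.0341 by limma); Ppy differed by 2.04 and did not pass (adjusted p = 0.0710). The part of this in the Ghrl values was not tested. Mboat4, the acyltransferase that activates ghrelin, did not exceed 0.355 FPKM. The Ghrl locus overlaps Gm26982 and Gm44033 on the other strand. The library kit does not mark strand, so reads from any shared exon bases cannot be told apart by strand. Whether exons of the 3 genes overlap was not checked. Its most similar genes were Haus6 (r = 0.751, rho = 0.801), Sytl5 (r = 0.740, rho = 0.689) and Abl2 (r = 0.703, rho = 0.766).

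**Figure D4:**
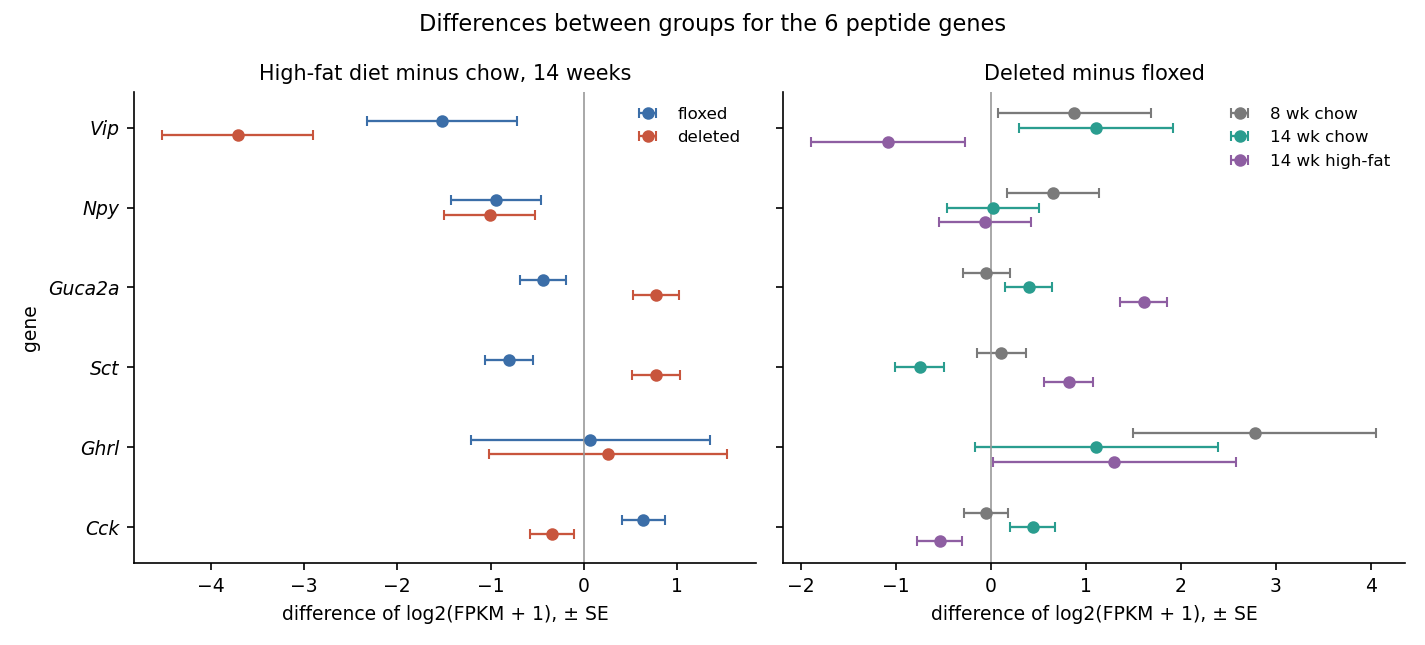
Differences of log2(FPKM + 1) for the 6 peptide genes, with whiskers of 1 SE from the fit over 18 libraries. Left, high-fat diet minus chow at 14 weeks in floxed (blue) and deleted (red) islets; right, deleted minus floxed in each condition. Guca2a and Sct lie on opposite sides of 0 in the left panel, at -0.44 and 0.77 and at -0.80 and 0.77.

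Other peptide hormone and neuropeptide genes in the same islets moved by diet in both directions. Of 36 relatives listed, 19 were tested. In floxed islets on the high-fat diet 3 rose and 4 fell, where 28.5% of all genes passed, among them proenkephalin (Penk, -1.36, adjusted p = 4.26e-06 by limma), amylin (Iapp, 0.64, adjusted p = 9.07e-06), glucagon (Gcg, -0.63, adjusted p = 0.000773) and somatostatin (Sst, -0.48, adjusted p = 0.00163). In deleted islets 5 rose and 1 fell, where 15.0% of all genes passed, among them Sst (0.75, adjusted p = 6.07e-05), Iapp (0.50, adjusted p = 0.000273), Penk (-0.66, adjusted p = 0.00645) and urocortin 3 (Ucn3, 0.25, adjusted p = 0.0118). With quantile normalization, the calls of Iapp in both genotypes (0.00), Gcg in floxed (-0.36) and Ucn3 in deleted islets (0.08) were lost. Ucn3 also lost its call when replicate 1 of deleted islets on chow at 14 weeks was left out (0.23, adjusted p = 0.0552). Penk was at 1.96, 2.09 and 1.95 FPKM on chow and 0.245, 0.272 and 0 FPKM on the diet in floxed islets, and at 0.835, 1.72 and 0.939 and 0.32, 0.303 and 0.417 FPKM in deleted islets, without overlap in either. Medians over the list were -0.05 and 0.32, beside -0.006 and -0.003 over all genes.

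At 8 weeks 1 relative rose (Pyy) and 1 fell (Gcg) with the deletion, against 0.548% of all genes. Averaged over the conditions 1 fell (Kiss1, -0.56, adjusted p = 0.0398 by limma), against 3.61%. The Kiss1 call was lost in 18 of 24 alternatives, with adjusted p up to 0.086. Between 8 and 14 weeks over both diets 5 rose and 0 fell, against 20.1%. The neuropeptide genes tachykinin 1 (Tac1) and Cartpt had their highest values, 5.21 and 8.81 FPKM, in the same deleted 8-week replicate 1 as Vip and Npy, as did galanin (Gal, 7.65 FPKM) and gastrin-releasing peptide (Grp, 2.42 FPKM). These 4 were chosen after their values were seen.

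Among genes that process or store peptide prohormones, more rose than fell on the high-fat diet. Of 16 listed, 14 were tested, and 7 rose and 1 fell in floxed islets while 6 rose and 0 fell in deleted islets (median 0.23 in each, beside -0.006 and -0.003 over all genes). Over all genes 28.5% and 15.0% passed. Scg3, a granule protein that binds chromogranin A, rose by 0.53 (adjusted p = 1.13e-06 by limma) and 0.44 (adjusted p = 3.19e-05). Pam, which amidates the carboxyl end of VIP, NPY, secretin and cholecystokinin, rose by 0.61 (adjusted p = 4.39e-05) and 0.52 (adjusted p = 0.000466). Pcsk1n, an inhibitor of the prohormone convertase PC1, rose by 0.61 (adjusted p = 5.72e-05) and 0.49 (adjusted p = 0.00101). Scg5, the chaperone of the convertase PC2, rose by 0.49 in floxed islets (adjusted p = 4.39e-05; 0.18 with quantile normalization) and by 0.32 in deleted islets (adjusted p = 0.00383), where the call was lost with quantile normalization (0.06, adjusted p = 0.607). Chga, chromogranin A, rose by 0.43 in deleted islets (adjusted p = 0.000166), but with quantile normalization its differences turned to -0.12 in deleted islets (adjusted p = 0.383) and to -0.39 in floxed islets, which passed as a fall (adjusted p = 0.00257; 0.30 without it). Averaged over the conditions, the convertase gene Furin (-0.49, adjusted p = 0.0109 by limma) and Pcsk1n (-0.23, adjusted p = 0.0144) were lower in deleted islets. These are 2 of 14 genes, against 3.61% of all. In the other 2 comparisons 1 gene fell at 8 weeks (0.548% of all genes), and 4 rose and 2 fell between 8 and 14 weeks (20.1% of all genes).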

How the data were processed

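Islet total RNA was converted to full-length cDNA (SMART-Seq HT) and made into Nextera libraries, per the labels' protocols; this chemistry does not mark strand. The submitters' processing notes name Cufflinks 2.2.1, TopHat2 2.0.13, SAMtools 0.1.19, Bowtie2 2.2.3 and the build mm10; which annotation was used is not given in the sources used here. Each deposited table holds values that are taken to be FPKM, for 1 of 18 libraries; neither header nor label names the unit, which rests on Cufflinks and on the values. No read counts are given, so depth is unknown.

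From these values, log2(FPKM + 1) was fitted with limma 3.58.1 (statmod 1.5.0, R 4.3.3) to 6 group means over 18 libraries, with trended, robust variances, for genes of at least 1 FPKM in at least 3 libraries, and p-values were adjusted by Benjamini-Hochberg over 12234 genes. The procedure was tested on simulated data. For the members, comparisons that share libraries with their choice are given without a test. Alternatives were a pseudocount of 0.1, no filter, a minimum mean of 5 FPKM, quantile and median-ratio scaling, sample weights, only the groups compared, the replicate number as a block, and each library left out; for genes other than the members these were added after seeing the data. No 2 libraries held identical values.

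The members and all lists were chosen with earlier results of these data known. Named were the 6 members, up to 4 genes per list of receptors, relatives and processing genes with the smallest p in the diet and mean genotype comparisons, and for each tested member the 3 genes with the highest Pearson r; others are said to be chosen later. Markers of beta, alpha, delta, PP, neuronal, Schwann, acinar, intestinal epithelial and enteroendocrine cells were summed per library. Gene positions are from GENCODE M21 and promoters from RefSeq.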

Additional observations from a re-analysis of the deposited data

Results flagged for a closer look

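Guca2a lay lower on the high-fat diet than on chow in all 3 floxed libraries and higher in all 3 deleted libraries; the difference between these diet effects, 1.21 on the log2 scale (SE 0.35), was not tested because genes were chosen for such differences. Its receptor gene Gucy2c had a diet effect that differed between the genotypes in the opposite direction, by -0.85 (SE 0.159, adjusted p = 0.00475 by limma). All 3 floxed high-fat libraries stood above the other libraries for Gucy2c. The share of all genes whose libraries stand apart is not given here, so these separations are descriptions only.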

How the results depend on the processing

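The FPKM values carry no counts, so sampling error at low values is unknown; this touches Sct and Cck most. The mean genotype difference of Guca2a was 0.58 to 0.85 in the 24 alternatives that could be run, and the difference of Vip at 14 weeks over both diets against 8 weeks -2.31 to -1.43 in 25. These comparisons share libraries with the choice of genes and are not used as tests. Guca2a was not fitted where the mean had to reach 5 FPKM. A pseudocount of 0.1 turned the mean genotype difference of Vip to -0.07. Sample weights turned that of Sct to -0.06 and its 8-week difference to -0.05, and made the Stmn2 diet difference in deleted islets pass (-1.51, adjusted p = 0.0463). Quantile normalization turned Chga to -0.39 and -0.12 on diet in floxed and deleted islets. The causes were not tested.

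Genes called for genotype at 8 weeks were 67, but 25 without a filter, 44 with only the 2 groups and 406 with sample weights; for mean genotype 442 became 906 and for diet in deleted islets 1830 became 2834 with weights. Genes called at 8 weeks ran from 16 without floxed 8-week replicate 2 to 168 without deleted 14-week chow replicate 3. Leaving out 1 library gave 1159 to 2082 genes for diet in deleted islets. It moved the difference of Ghrl between 8 and 14 weeks from 0.00 to 0.76, of Guca2a at 8 weeks from -0.27 to 0.11, of Sct at 8 weeks from -0.07 to 0.29 and in the genotype mean from -0.01 to 0.17, of Gucy2c in deleted islets from -0.12 to 0.02, of Stmn2 in floxed islets from -0.73 to 0.26 and of Prph from -0.96 to 0.09.

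Same-numbered floxed and deleted libraries showed no clear shared deviation (r -0.156 to 0.160 over 9 pairs, 1 over 0.1). They were not treated as paired in the main fit, but so few pairs cannot settle whether the numbers pair them. With a replicate block, Guca2a differed by 0.65 in the genotype mean, Vip by -1.76 between 8 and 14 weeks, and the genes called were 64 at 8 weeks, 418 for mean genotype, 2373 for 14 against 8 weeks, and 3392 and 1729 for diet; the block ended the call of Kiss1 (adjusted p = 0.06).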
